A study of Mus musculus with 10 samples.

Results

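Transcripts of 9 genes whose products bind titin, namely Ankrd1, Ankrd2, Ankrd23, Fhl1, Fhl2, Trim54, Trim55, Trim63 and Capn3, were followed in the heart and skeletal muscle of the mouse. They were taken by gene symbol as partners of the titin spring and of its M-band end, and all 9 were found among the 23337 genes of the count files. Left ventricle (LV) and skeletal muscle (SkM) were each sequenced from 5 mice at 17 weeks of age, which gave 10 libraries. The WT group held 2 mice and the E0del/+ group 3, the latter heterozygous for a deletion of E0, a conserved stretch of intron 1 of Ttn that was removed with CRISPR/Cas9 in C57BL/6J zygotes. The 5 mice were hybrids from crosses of C57BL/6 E0del/+ mice with 129SvEv WT mice, and each library was 1 tissue of 1 mouse. The labels give neither the sex of a mouse nor the skeletal muscle sampled. On mm10 the genes lie at chr19:36111965-36119844 (Ankrd1), chr19:42036038-42045110 (Ankrd2), chr1:36530534-36535729 (Ankrd23), chrX:56731787-56793346 (Fhl1), chr1:43123074-43163961 (Fhl2), chr5:31116612-31137626 (Trim54), chr3:19644460-19691599 (Trim55), chr4:134315120-134329629 (Trim63), chr2:120463593-120504919 (Capn3) and chr2:76703984-76982547 (Ttn). Total counts were between 11010021 and 15361520 in LV and between 13892390 and 17484873 in SkM.

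Titin is a giant filament protein that spans from the Z disc to the M band of the sarcomere, and the elastic part of the molecule in the I band acts as a spring. The muscle ankyrin repeat proteins encoded by Ankrd1, Ankrd2 and Ankrd23 bind this spring, and are known for induction by stretch or load and for movement between the sarcomere and the nucleus. The LIM domain proteins FHL1 and FHL2 bind the spring as well, and FHL2 also docks near the M band. Trim63, Trim55 and Trim54 encode MuRF1, MuRF2 and MuRF3, RING-type ubiquitin ligases of muscle, of which MuRF1 binds titin close to its kinase domain and is known for muscle wasting. Capn3 encodes calpain 3, a protease held inactive on titin, whose loss causes a limb-girdle muscular dystrophy.

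The design allows the tissues to be compared within a mouse and the genotypes within a tissue. Ttn, the gene that carries the deletion, was counted at 6265 and 8069 normalized CPM in the WT LV replicates 1 and 2 and at 6285, 3962 and 5678 in E0del/+ LV replicates 1 to 3. In SkM it stood at 27341 and 22003 in the WT replicates 1 and 2, and at 23551, 24173 and 17032 in the E0del/+ replicates 1 to 3. Normalized CPM (CPM are read counts scaled to the library total) were obtained with TMM factors, which were between 1.16 and 1.40 in LV and between 0.721 and 0.885 in SkM. Ttn was thus higher in the SkM of every mouse, and its genotypes overlapped in SkM and, by 1 library, in LV. On CPM of total counts, without TMM, Ttn stood at 7959 and 9344 in the WT LVs and at 7737, 5560 and 6597 in the E0del/+ LVs, so that its genotypes did not overlap there, as was so for 15.4% of the genes tested. In SkM they overlapped on this scale as well. Within 4 mice, Ttn in LV was 4.28-fold lower than in SkM (log2 fold change -2.10 ± 0.26 SE, adjusted p = 0.000311, edgeR's quasi-likelihood test, Benjamini-Hochberg). A genotype difference of Ttn did not pass this test in LV (log2 fold change E0del/+ minus WT -0.45 ± 0.27 SE, adjusted p = 0.997) or in SkM (-0.17 ± 0.24 SE, adjusted p = 1.00).

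The WT LV replicate 2 library stood apart from the other LVs and was kept out of the comparison of tissues together with the SkM of the same mouse. It held transcripts of fast skeletal muscle fibres, whose 9 markers summed to 34303 normalized CPM, against 119 to 147 in the 4 other LVs and 181135 to 239270 in SkM. Myh4, the myosin heavy chain of the fastest fibres, was the most abundant of them. Adipose markers (5 genes, led by Cfd) summed to 234 normalized CPM in this library against 1.73 to 19.5 in the other LVs. On the scale of CPM of total counts, the excess of the 9 fast fibre markers over the other LVs was a median of 23.0% of their excess in the mean of the 5 SkM libraries, from 16.7% to 24.7%.

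The 4 members that were higher in SkM than in the other LVs by the largest factors were also higher in WT LV replicate 2 than in those LVs. Capn3 stood at 41.4 normalized CPM in WT LV replicate 2 against 4.41 to 8.62 in the other LVs, an excess of 22.3% of that in SkM. The excess of Ankrd23 was 23.1%, that of Fhl1 14.5% and that of Ankrd2 9.56%. Of these 4 members, Ankrd2 and Fhl1 varied most between SkM libraries, and against the SkM of the same mouse their excess was 23.8% and 35.6%. The 9 fast fibre markers had a median of 18.1% on that same-mouse reference, from 15.7% to 44.6%. Fhl2, which was high in heart, was at 65.0% of the mean of the other LVs in CPM of total counts, where those LVs themselves lay between 96.4% and 105%. Ankrd1 was at 77.3%, inside the 70.6% to 147% of the other LVs. The 6 ventricle markers, led by Myh6, lay between 62.0% and 82.5% (median 74.2%). The part of the skeletal muscle transcripts in these values was not tested.

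**Figure D1:**
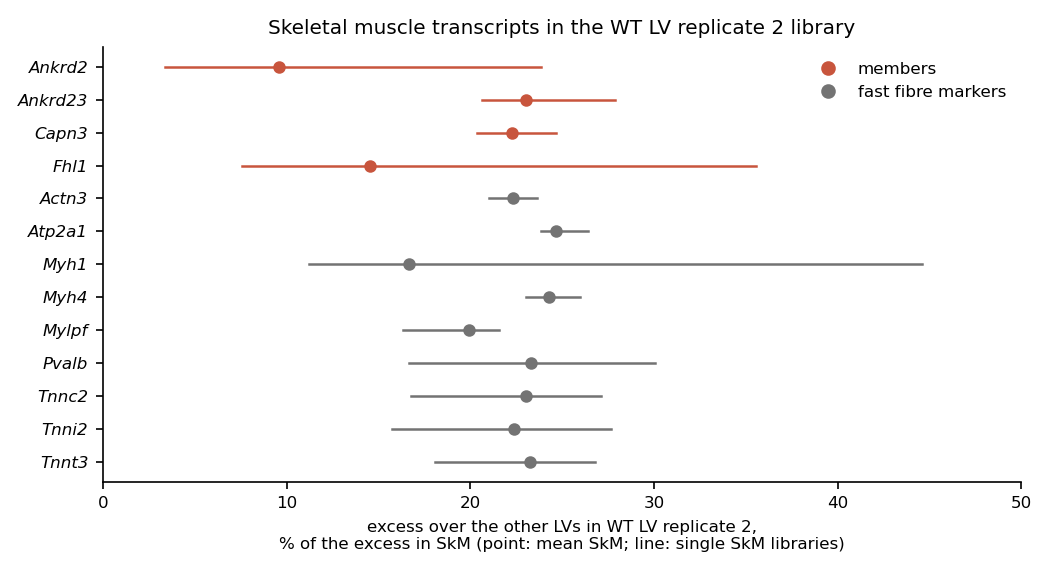
Excess of a gene in WT LV replicate 2 over the mean of the 4 other LVs, as a percent of its excess in SkM (x axis, CPM of total counts), for the 4 members higher in SkM and the 9 fast fibre markers (y axis). Points use the mean of the 5 SkM libraries and lines run from the lowest to the highest value against single SkM libraries. Capn3 (22.3%) and Ankrd23 (23.1%) lie beside the median of the markers (23.0%), while Ankrd2 and Fhl1 have wide lines.

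Ankrd1 and Fhl2 were the members of the heart. Ankrd1, which encodes the cardiac ankyrin repeat protein, stood at 881 normalized CPM in WT LV replicate 1, and at 1113, 1089 and 2002 in the E0del/+ LVs 1 to 3. In SkM it was counted at 3.25 and 8.73 in the WT mice and at 19.2, 34.8 and 2.74 in the E0del/+ mice. Every LV was thus far above every SkM. Relative to their mean, the SkM libraries varied more (coefficient of variation 98.2%, n = 5) than these LVs (39.2%, n = 4). Ankrd1 was 116-fold higher in LV within 4 mice, higher in 4 of 4 (log2 fold change LV minus SkM 6.86 ± 0.82 SE, adjusted p = 0.000268, edgeR quasi-likelihood test). The fold in single mice was between 31.3 and 732, and the log2 fold change was 6.11 without the mouse E0del/+ replicate 3 and 7.55 without E0del/+ replicate 2.

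Fhl2 was the steadiest of the heart members. It stood at 1071 normalized CPM in WT LV replicate 1 and at 1030.5, 943 and 1079.7 in the E0del/+ LVs 1 to 3, a coefficient of variation of 6.04% over 4 libraries. In SkM it reached 2.28 and 3.41 in WT, and 6.20, 3.08 and 2.29 in E0del/+, which rest on 26 to 86 counts a library. It was 303-fold higher in LV, in 4 of 4 mice (log2 fold change 8.24 ± 0.34 SE, adjusted p = 1.68e-06, edgeR quasi-likelihood test). In bulk tissue, a lower share of the cells that make a transcript and less of it per cell cannot be told apart.

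The promoters of these 2 genes are shown because they differ between the tissues by the largest factors in favour of heart. The windows run from 250 bases before to 50 after the RefSeq start (GRCm38.p6, the build of the files), and capitals mark matches to 4 motifs known from muscle genes. These are the MCAT motif (GGAATG or its complement CATTCC), the E box (CANNTG, its own complement), and, by name, the CArG box and the MEF2 motif, searched on both strands.
Ankrd1, chr19:36119795-36120094, minus strand: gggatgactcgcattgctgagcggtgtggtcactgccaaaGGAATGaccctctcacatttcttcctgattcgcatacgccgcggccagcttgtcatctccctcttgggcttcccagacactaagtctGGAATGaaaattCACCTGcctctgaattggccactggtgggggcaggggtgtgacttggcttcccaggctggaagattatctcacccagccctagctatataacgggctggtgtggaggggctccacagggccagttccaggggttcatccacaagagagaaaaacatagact
Fhl2, chr1:43163912-43164211, minus strand: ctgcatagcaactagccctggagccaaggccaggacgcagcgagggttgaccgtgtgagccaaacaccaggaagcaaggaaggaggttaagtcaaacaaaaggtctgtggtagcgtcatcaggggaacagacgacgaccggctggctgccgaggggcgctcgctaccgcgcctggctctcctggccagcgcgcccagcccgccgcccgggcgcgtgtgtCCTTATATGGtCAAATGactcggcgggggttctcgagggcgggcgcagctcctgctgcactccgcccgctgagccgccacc
The Ankrd1 window held 2 MCAT motifs, 210 and 123 bases before the start, and 1 E box 111 bases before it. The Fhl2 window held a CArG box 31 bases and an E box 20 bases before the start. Of 32851 promoters of this length, 14.7% held an MCAT motif and 1.36% held 2 or more, 72.3% held an E box, 1.63% a CArG box and 3.19% a MEF2 motif. RefSeq lists a further start of Fhl2, 32800 bases from the first base of the gene in the files, and its window held a MEF2 motif, a CArG box and 3 E boxes. Which start was used was not tested. A match is a description of the letters and not of a bound site.

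Ankrd2, Capn3, Fhl1 and Ankrd23 were the members of skeletal muscle. Ankrd2, known for its high level in slow fibres, was counted at 0.605 normalized CPM in WT LV replicate 1 and at 0.212, 0.388 and 0.375 in the E0del/+ LVs, from 4 to 10 counts a library. In SkM it stood at 59.7 and 35.5 in WT, and at 35.3, 227 and 36.7 in E0del/+. The E0del/+ SkM replicate 2 library was thus far above the other 4. Ankrd2 was 200.4-fold lower in LV, in 4 of 4 mice (log2 fold change -7.65 ± 0.37 SE, adjusted p = 3.58e-06, edgeR quasi-likelihood test). Without E0del/+ replicate 2 the log2 fold change was -6.82, and with WT mouse 2 added it was -6.12.

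Capn3 was lower in LV as well. It stood at 4.41 normalized CPM in WT LV replicate 1 and at 8.62, 6.08 and 5.33 in the E0del/+ LVs, against 212 and 275 in WT SkM and 212, 263 and 214 in E0del/+ SkM. The coefficient of variation over SkM was 13.3% (n = 5), and the tissues did not overlap. Capn3 was 38.5-fold lower in LV, in 4 of 4 mice (log2 fold change -5.27 ± 0.20 SE, adjusted p = 1.25e-06, edgeR quasi-likelihood test).

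The promoters of these 2 genes are given beside those above, as the pair with the largest differences in favour of skeletal muscle.
Ankrd2, chr19:42035777-42036076, plus strand: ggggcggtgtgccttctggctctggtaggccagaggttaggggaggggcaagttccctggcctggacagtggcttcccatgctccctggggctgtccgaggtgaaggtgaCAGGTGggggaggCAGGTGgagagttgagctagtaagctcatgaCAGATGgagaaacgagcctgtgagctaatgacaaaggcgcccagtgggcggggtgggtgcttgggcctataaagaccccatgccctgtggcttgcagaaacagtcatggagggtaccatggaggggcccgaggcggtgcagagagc
Capn3, chr2:120463343-120463642, plus strand: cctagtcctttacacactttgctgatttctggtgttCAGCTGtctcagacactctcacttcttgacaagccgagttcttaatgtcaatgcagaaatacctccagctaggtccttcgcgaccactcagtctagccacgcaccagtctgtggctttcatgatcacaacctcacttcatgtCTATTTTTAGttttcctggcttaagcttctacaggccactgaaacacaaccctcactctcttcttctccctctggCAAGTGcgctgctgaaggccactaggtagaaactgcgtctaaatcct
The Ankrd2 window held 3 E boxes, 140, 127 and 96 bases before the start, and no other motif searched. The Capn3 window held a MEF2 motif 72 bases before the start and 2 E boxes, 1 of them 214 bases before it. The window at a further RefSeq start of Capn3, 13316 bases away, held 2 E boxes and no MEF2 motif. RefSeq entries were matched for 8 of the 9 members. Of these, Trim54 held 2 MCAT motifs and Trim63 held 1, and each of the 2 Ankrd23 starts held 1. RefSeq also lists 2 starts of Fhl1, and 1 of their windows held a CArG box 102 bases before the start. No 2 motifs overlapped in any window.

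Fhl1 and Ankrd23 were higher in skeletal muscle by smaller factors and from a substantial level in heart. Fhl1 stood at 152 normalized CPM in WT LV replicate 1 and at 171, 140.2 and 177 in the E0del/+ LVs, against 1374 and 886 in WT SkM and 1597, 2881 and 1124 in E0del/+ SkM. It was 10.5-fold lower in LV, in 4 of 4 mice (log2 fold change -3.39 ± 0.30 SE, adjusted p = 5.99e-05, edgeR quasi-likelihood test). Ankrd23 stood at 508, 589, 378 and 969 normalized CPM in the same order of LVs, and at 3680, 5120, 4002, 4649 and 3672 in SkM. It was 7.13-fold lower in LV, in 4 of 4 mice (log2 fold change -2.83 ± 0.30 SE, adjusted p = 0.000136, edgeR quasi-likelihood test). GENCODE lists a gene on the same strand, Gm42417, that shares 1708 exon bases with Ankrd23, and reads of the 2 cannot be told apart.

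The 3 MuRF genes differed between the tissues by smaller factors than the other members. Trim63 stood at 180.3 normalized CPM in WT LV replicate 1 and at 196, 171 and 221 in the E0del/+ LVs, against 211 and 393 in WT SkM and 214, 262 and 347 in E0del/+ SkM. Trim54 stood at 201, 257, 243 and 292 in these LVs and at 327, 645, 369, 430.0 and 485 in SkM. It shares 382 exon bases with an antisense gene, Gm15469, and the libraries carry no strand. Trim55, the least abundant of the family, lay between 38.7 and 69.5 in LV and between 52.9 and 74.7 in SkM, so its tissues overlapped.

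The direction of Trim63 and Trim55 between tissues changed with the scaling of the libraries, and that of Trim54 did not. With TMM, Trim54 was 1.67-fold lower in LV (log2 fold change -0.74 ± 0.13 SE, adjusted p = 0.00195, edgeR quasi-likelihood test) and Trim63 1.36-fold lower (-0.45 ± 0.15 SE, adjusted p = 0.0326), whereas Trim55 did not pass the test (-0.26 ± 0.20 SE, adjusted p = 0.309). With total counts in place of TMM, none of the 3 passed the edgeR test, and the log2 fold changes were -0.08 (adjusted p = 0.419) for Trim54, 0.21 (adjusted p = 0.128) for Trim63 and 0.39 (adjusted p = 0.0649) for Trim55. Without TMM the median of all genes tested was 0.67 rather than 0.02, a shift of 0.65, and the MuRF genes moved with it. On CPM of total counts, Trim63 was higher in LV in 3 of the 4 mice, and Trim54 in 2. The call of Trim63 was also lost when WT replicate 1 (adjusted p = 0.0608), E0del/+ replicate 2 (0.0553) or E0del/+ replicate 3 (0.127) was left out of the edgeR fit, with log2 fold changes of -0.53, -0.36 and -0.36 in that order.

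**Figure D2:**
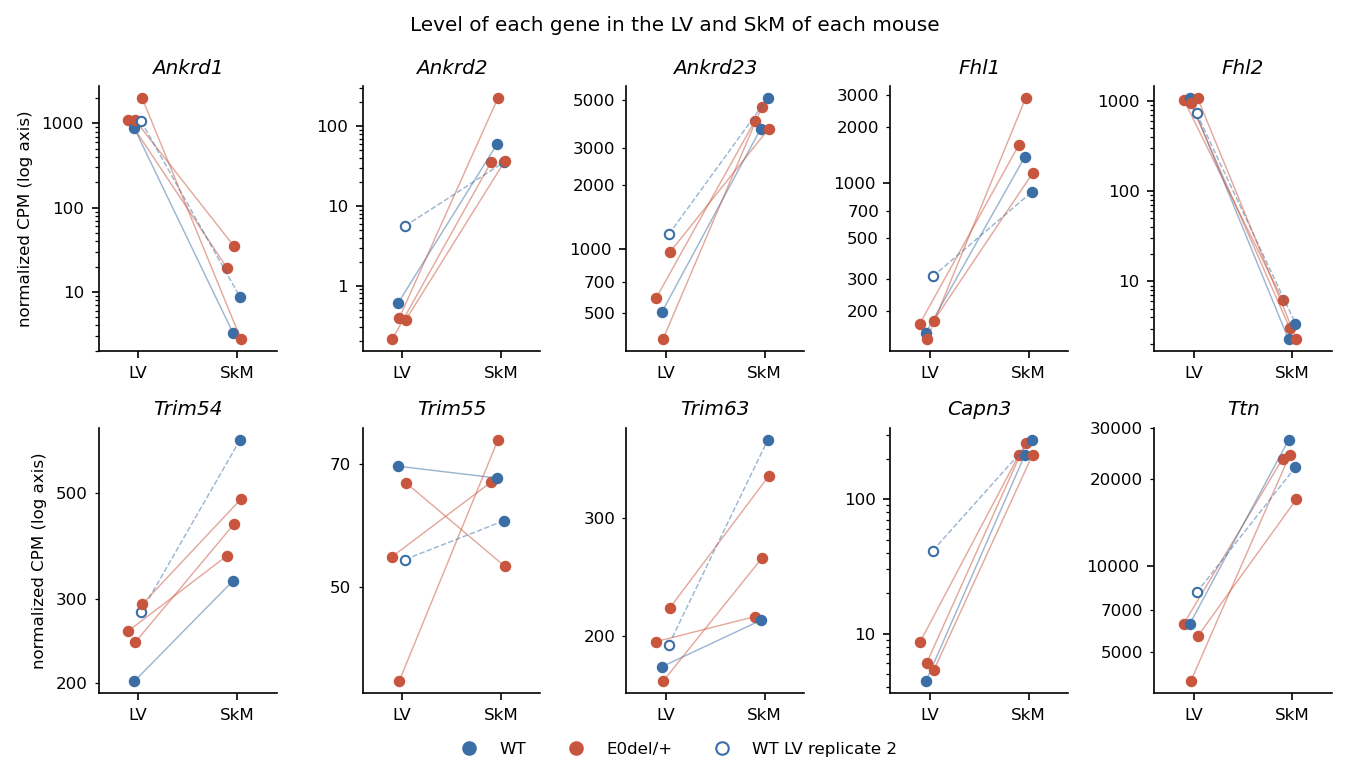
Normalized CPM (y axis, log scale, range differs by panel) of the 9 members and Ttn in LV and SkM, with a line joining the 2 tissues of each mouse, WT in blue and E0del/+ in red. The open point is WT LV replicate 2. Ankrd1 and Fhl2 fall from LV to SkM in every mouse, Ankrd2, Capn3, Fhl1, Ankrd23 and Ttn rise, and the Trim55 lines cross.

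Over the whole table, 8202 of 13375 genes passed the threshold of 0.05 between the tissues (61.3%), 4211 higher in LV (31.5%) and 3991 lower (29.8%). Of the 9 members, all of which passed the filter on low counts, 2 were higher in LV, 6 were lower and 1, Trim55, was not called. With total counts, 7683 genes were higher and 1698 lower, and of the members 2 were higher and 4 lower. With all 10 libraries, WT LV replicate 2 among them, 8255 of 13283 genes were called, and again 2 members were higher and 6 lower in LV. The median log2 fold change of the members was -0.74, against 0.02 for all genes tested.

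**Figure D3:**
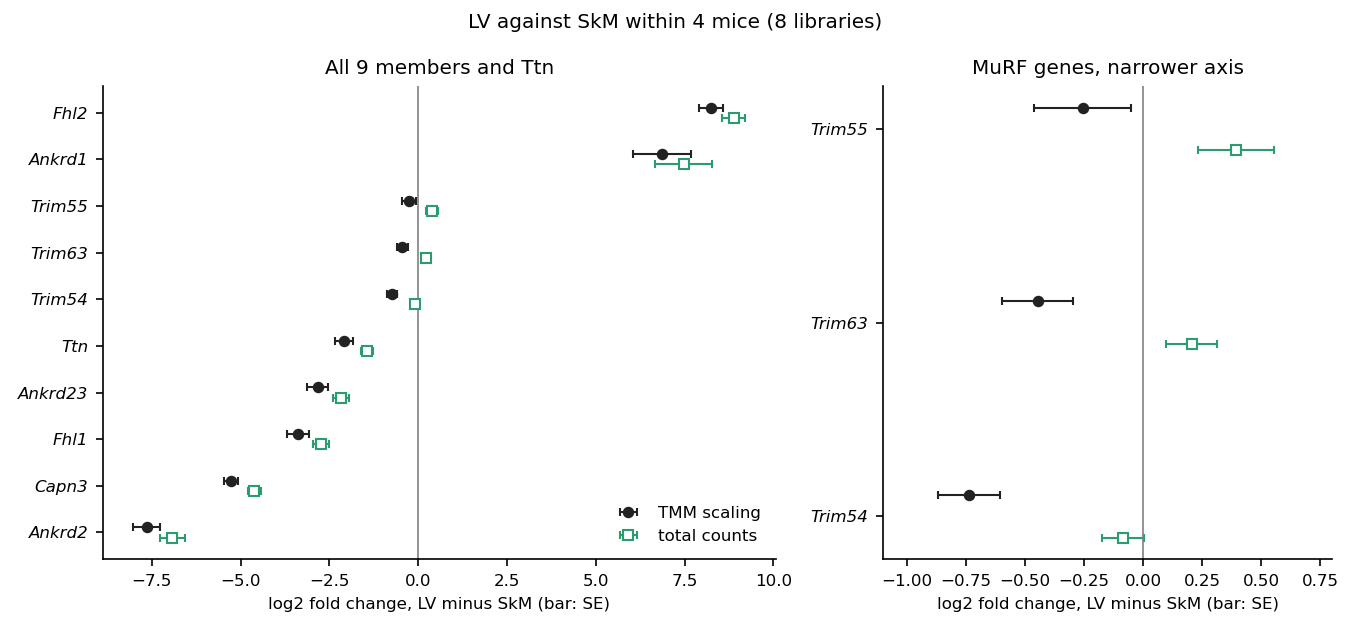
Log2 fold change LV minus SkM (x axis, bars are SE) within 4 mice for the 9 members and Ttn, with TMM scaling (filled) and with total counts (open), and the MuRF genes again on a narrower axis at the right. Total counts move every gene to the right by about the same amount, from 8.24 to 8.88 for Fhl2 and across 0 for Trim63 and Trim55.

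Levels were compared between genes per kilobase of exon. In LV the order of the means, without WT replicate 2, began with Ankrd1 at 720.3 ± 282 normalized CPM per kb (SD, n = 4) and Fhl2 at 659.7 ± 39.9, which exchanged places between libraries. Ankrd23 (313 ± 130), Trim54 (162 ± 24.4) and Trim63 (102 ± 11.5) followed, each above the next in 4 of 4 libraries. Fhl1 (55.7 ± 5.88) could not be set apart from Ttn (53.2 ± 10.5), and Trim55 (32.0 ± 7.83) lay below both. Capn3 (1.75 ± 0.52) and Ankrd2 (0.36 ± 0.15) closed the order.

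In SkM the order began with Ankrd23 at 2162 ± 327 normalized CPM per kb (SD, n = 5), above every other member in 5 of 5 libraries. Fhl1 (547 ± 271), Trim54 (294 ± 80.7), Ttn (219 ± 36.2), Trim63 (151 ± 43.1), Ankrd2 (71.7 ± 75.9) and Capn3 (67.4 ± 8.99) followed with ranges that overlapped between neighbours. Ankrd2 was above Capn3 in 1 of the 5 libraries, E0del/+ replicate 2. Trim55 (36.0 ± 4.60), Ankrd1 (7.78 ± 7.64) and Fhl2 (2.21 ± 1.03) came last. The order of the MuRF genes, Trim54 above Trim63 above Trim55, was the same in the means of both tissues.

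Relative to Ttn in the same library, the MuRF genes were higher in the heart, a comparison that no scaling of libraries affects. Trim63 stood at 159% of the per-length level of Ttn in WT LV replicate 1 and at 173%, 239% and 215% in the E0del/+ LVs, against 42.8% and 98.7% in WT SkM and 50.3%, 59.9% and 113% in E0del/+ SkM. Its ratio was 3.14-fold higher in LV, that of Trim55 3.58-fold and that of Trim54 2.57-fold, each in 4 of 4 mice. The level of Ttn itself was lower in LV, by 4.28-fold with TMM and by 2.73-fold with total counts, and a gene at the same level in both tissues would be higher relative to Ttn by that factor. All 3 ratios lay below the former, and Trim54 alone below the latter. Ankrd1 and Fhl2 were also higher relative to Ttn in LV, whereas Ankrd2 (42.1-fold), Capn3 (9.09-fold), Fhl1 (2.46-fold) and Ankrd23 (1.66-fold) were lower, again in 4 of 4 mice each.

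For each of the 9 ratios, 2 of the 16 ways to assign signs to 4 mice gave a mean difference as far from 0 (exact permutation, two-sided), the fewest possible, so that 4 mice cannot reach 0.05. With WT mouse 2 added, each member had the same direction in 5 of 5 mice, with an exact permutation p of 0.0625, the smallest that 5 mice allow. The length given for Ttn, 104320 bp, sums 314 exons, some of which are known to be spliced out, so that its per-length level depends on isoforms that gene counts do not separate. It also shares 453 exon bases with an antisense gene, Gm13938. With 5 libraries a tissue and 2 tissues far apart, no correlation with Ttn across libraries was computed.

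**Figure D4:**
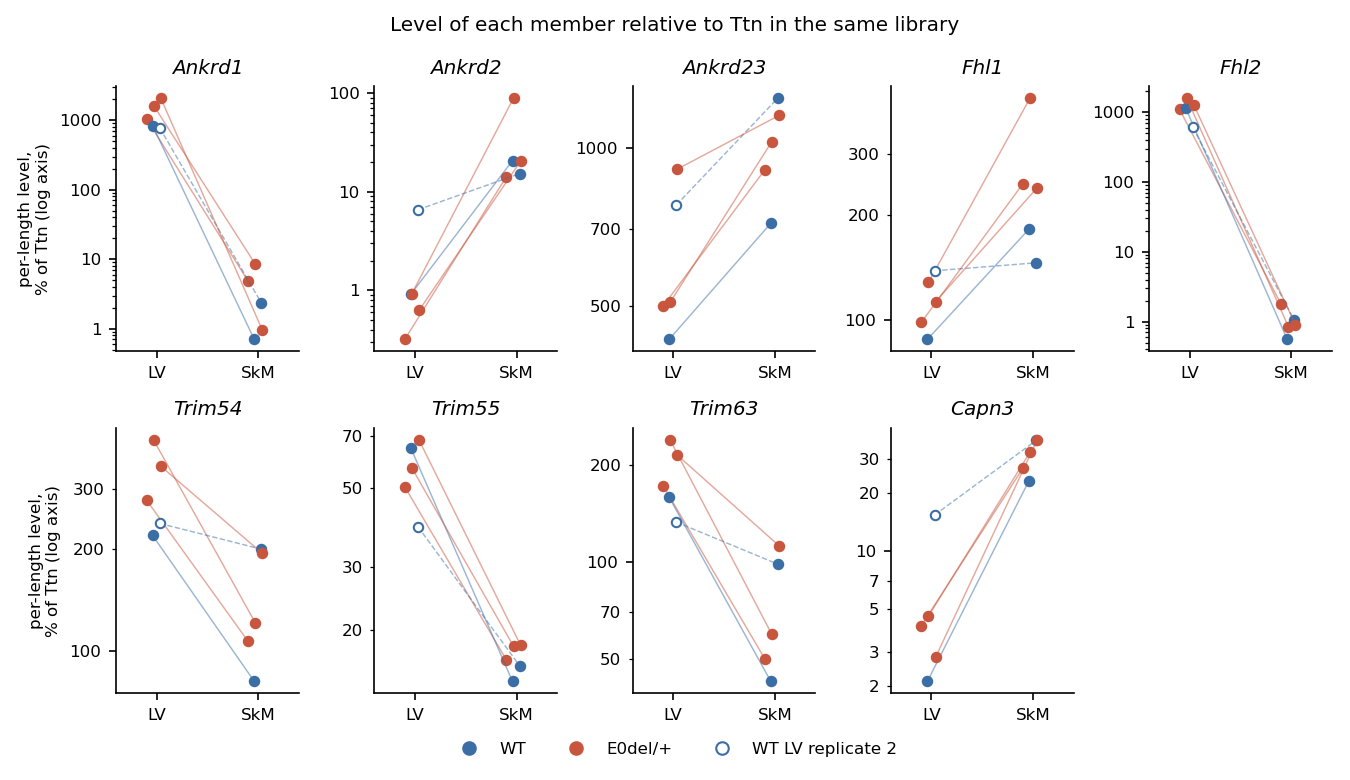
Counts per exon length of each member as a percent of those of Ttn in the same library (y axis, log scale, range differs by panel), in LV and SkM, with lines joining the tissues of a mouse, WT in blue, E0del/+ in red and WT LV replicate 2 open. The lines of all 3 MuRF genes fall from LV to SkM, as do those of Ankrd1 and Fhl2, and the other 4 rise.

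Of 18 other genes linked to titin, 6 were higher in LV and 10 lower by the edgeR test, and Nbr1 and Tcap were not called. Of all genes tested, 31.5% were higher and 29.8% lower. With total counts 7 of the 18 were higher and 9 lower, against 57.4% and 12.7% of all genes. Their median log2 fold change was -0.89 with TMM and -0.24 with total counts. Mybpc3, cardiac myosin-binding protein C, averaged 6741 ± 1215 normalized CPM (SD, n = 4) in LV and 13.8 ± 12.8 (n = 5) in SkM. The slow and fast skeletal forms Mybpc1 and Mybpc2, and nebulin (Neb), went the other way, with 1.42 ± 0.29, 41.2 ± 7.11 and 22.8 ± 3.47 in LV, against 1347 ± 548, 10419 ± 1364 and 14006 ± 2843 in SkM.

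Of 13 other ubiquitin ligase and calpain genes of muscle, 1 was higher in LV, 7 were lower and 5 (Capn2, Cast, Fbxo30, Stub1 and Trim32) were not called. The kelch proteins Kbtbd10 and Kbtbd5, also known as Klhl41 and Klhl40, fell from 597 ± 107 and 302 ± 104 normalized CPM in SkM (SD, n = 5) to 49.3 ± 10.2 and 38.9 ± 6.27 in LV (n = 4). Capn1, a ubiquitous calpain, was at 30.1 ± 0.99 in LV and 150.3 ± 22.7 in SkM, and the ligase gene Fbxo40 at 102 ± 43.7 and 269.7 ± 27.2. With total counts 6 of the 13 were higher in LV and 5 lower, and the median log2 fold change moved from -0.66 to -0.0033.

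Of 8 genes known to respond to load, 4 were higher in LV (Nppa, Nppb, Ctgf and Cyr61), 1 was lower (Acta1) and 3 were not called (Myh7, Rcan1 and Xirp1). With total counts 5 were higher and 1 lower. Nppa averaged 285 ± 127 normalized CPM in LV (SD, n = 4) and 4.10 ± 3.24 in SkM (n = 5), and Nppb 76.4 ± 37.2 and 0.43 ± 0.28. Ctgf stood at 166 ± 142 and 11.7 ± 4.55, and Cyr61 at 72.7 ± 45.1 and 32.9 ± 9.10. Acta1 averaged 628 ± 435 in LV and 49233 ± 7812 in SkM. Myh7 stood at 1412 ± 93.5 and 923 ± 798, Xirp1 at 433 ± 151 and 309 ± 213, and Rcan1 at 79.5 ± 22.2 and 84.8 ± 24.5.

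Within a tissue, single libraries accounted for much of the spread. On normalized CPM, the E0del/+ LV replicate 3 library was the highest of the 4 LVs for 31.6% of the genes tested. It was so for 6 of the 9 members and for 7 of the 8 load response genes, all but Nppa. The members included Ankrd1 (2002 normalized CPM against 881 to 1113) and Ankrd23 (969 against 378 to 589), and Fhl2 by little (1079.7 against 1070.9 in WT LV replicate 1). The load response genes included Ctgf (378 against 93.8 to 96.1), Cyr61 (140.2 against 46.9 to 53.7), Acta1 (1275 against 341 to 482) and Nppb (125 against 42.9 to 85.3), and Myh7 by little (1496 against 1489 in E0del/+ LV replicate 2). On CPM of total counts, Fhl2 was lowest of the 4 in E0del/+ LV replicate 3 (1254 against 1361 in WT LV replicate 1). Fhl1 was then highest in E0del/+ LV replicate 1 (210 against 206), and Trim54 (341 against 339) and Myh7 (2090 against 1738) in E0del/+ LV replicate 2. Xist, the RNA made from the inactive X chromosome of females, stood at 4.2 normalized CPM in E0del/+ LV replicate 3 against 408 to 574 in the 3 other LVs. In WT LV replicate 2, which was kept apart, Xist was at 3.11. The Y-linked genes named below were high in WT LV replicate 2 and E0del/+ LV replicate 3 and near 0 in the other LVs. Atrium markers (3 genes, led by Nppa) summed to 175 in WT LV replicate 1 and to 187, 422 and 376 in the E0del/+ LVs 1 to 3. Fibroblast markers (5 genes, led by Dcn) summed to 744, 662, 782 and 533 in the same order, smooth muscle markers (3, Acta2) to 224, 141, 197 and 148, endothelial markers (4, Cdh5) to 1056, 1004, 1322 and 933, and macrophage markers (4, Lyz2) to 114, 132, 130.4 and 99.0. The part of these cells, or of what Xist marks, in the values was not tested.

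Among the SkM libraries, Ankrd2 and Fhl1 were highest in E0del/+ replicate 2, where the 3 slow fibre markers, led by Myh7, summed to 2372 normalized CPM. The sum was 1129 and 126 in the WT replicates 1 and 2, and 1630.4 and 246 in the E0del/+ replicates 1 and 3. Ankrd2 was lowest, at 35.3 normalized CPM, in E0del/+ replicate 1, which had the second highest of these sums. WT replicate 2 (35.5) and E0del/+ replicate 3 (36.7) lay close to it. On CPM of total counts Ankrd2 was lowest in WT replicate 2 (25.6, against 30.15 in E0del/+ replicate 1). Trim54 and Trim63 were highest in WT replicate 2 (645 and 393) and E0del/+ replicate 3 (485 and 347), where these sums were lowest. Fbxo32, another ligase gene of muscle wasting, stood at 899.8 and 945 there, against 372 to 454 in the other SkM libraries. Xist was at 0.48 and 0.53 in these 2 libraries and between 357 and 448 in the other 3, so that fibre type and what Xist marks cannot be told apart. Ankrd23 and Capn3 were highest in WT replicate 2 (5120 and 275) and E0del/+ replicate 2 (4649 and 263), and Fhl2 in E0del/+ replicate 1. Ankrd1 was above 10 normalized CPM in E0del/+ replicates 1 and 2 only. The 6 ventricle markers summed to 2432 and 286 in WT SkM and to 1532, 1778 and 196 in E0del/+ SkM, and Actc1, cardiac actin, made up 87.1% of the sum in the mean. Actc1 was highest in WT replicate 1 (2327), whereas the other 5, Myh6 among them, were highest in E0del/+ replicate 1. Myh6 stood at 250.3 and 164 in E0del/+ replicates 1 and 2 and between 49.8 and 79.7 in the other SkM libraries. The adipose sum was 1272.5 and 12.3 in WT and 331, 188 and 1448 in E0del/+. Fibroblast markers summed to 130 to 378 over SkM, endothelial markers to 136 to 254, smooth muscle markers to 48.3 to 157 and macrophage markers to 14.8 to 50.03. Of 5 blood markers only Alas2 was counted, at 3.49 to 25.1 in SkM and 17.1 to 25.7 in the 4 LVs, and the other 4 were at 0 in every library. The part of fibre type or of other cells in these values was not tested.

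Likeness of pattern was described by Pearson correlation of log2(CPM + 1) over 9 libraries, without WT LV replicate 2, after each tissue's mean was subtracted, among 8533 genes. For Ankrd1, the member with the widest spread (SD 1.04), the closest were Hspb6 (r = 0.95), Wwtr1 (0.93) and Rasd2 (0.93). For Ankrd2 (SD 0.81) they were Usp33 (0.95), Plau (0.92) and Jam2 (0.92), and for Fhl1 (SD 0.46) Slk (0.98), Lmcd1 (0.98) and Actn2 (0.97). The libraries share preparation and, in pairs, mice, and no test was made.

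The genotypes were compared to see whether the partners of titin differ where 1 copy of E0 is missing. In LV, 0 of 13420 genes passed the threshold in the edgeR quasi-likelihood test (0%), with 564 at an unadjusted p under 0.05, and DESeq2 also called 0. With batch as a block edgeR called 5 genes, all lower in E0del/+ and none a member, with 585 at an unadjusted p under 0.05. They were Ddx3y, Eif2s3y, Kdm5d and Uty of the Y chromosome, and Mstn, the gene of myostatin. The 4 Y-linked genes stood at 22.4 to 98.6 normalized CPM in WT LV replicate 2 and E0del/+ LV replicate 3 and at 0.97 or less in the other LVs, and Mstn at 37.4 in WT LV replicate 2 against 0.26 to 0.65. Of the members, 8 passed the filter on low counts and 0 were called. Ankrd1 stood at 881 and 1059 normalized CPM in WT and at 1113, 1089 and 2002 in E0del/+, so that its genotypes did not overlap (log2 fold change E0del/+ minus WT 0.52 ± 0.31 SE, adjusted p = 0.997, edgeR). Genotypes did not overlap in either direction for 16.3% of the genes tested, and for 1 of the 8 members. On CPM of total counts the share was 15.4%, with Ankrd1 and Trim63 among the members. The difference of Ankrd1 was 0.34 within batch 1 of the labels and 0.041 within batch 2, and batch 3 held no WT mouse. It was 0.18 without E0del/+ LV replicate 3 and 0.19 with batch as a block. In the lists of other titin-linked, ligase and calpain, and load response genes, 0 were called as well, with 4 of 18, 0 of 13 and 3 of 8 at an unadjusted p under 0.05. The 4 titin-linked genes were Mybpc1, Mybpc2, Neb and Csrp3, and the 3 load response genes Nppa, Nppb and Acta1. Mybpc1, Mybpc2, Neb and Acta1 stood at 191, 1805, 1829 and 8186 normalized CPM in WT LV replicate 2, against means of 1.42, 41.2, 22.8 and 628 in the other LVs. Without this library the counts were 0 of 18, 0 of 13 and 1 of 8 (Nppb), beside 104 of 13890 genes tested.

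WT LV replicate 2 set the direction of 4 members. With all 5 LVs the log2 fold change was -1.77 ± 0.70 SE for Capn3, -0.51 ± 0.29 for Fhl1, -0.40 ± 0.44 for Ankrd23 and 0.17 ± 0.23 for Fhl2. Without this library it was 0.60, 0.087, 0.33 and -0.081 in that order, and 0 genes were called. Ankrd1 (0.66), Trim54 (0.38), Trim63 (0.11), Trim55 (-0.40) and Ttn (-0.25) kept their sign. With WT LV replicate 2 as the only WT library, 578 of 14050 genes were called (4.11%), 574 of them lower in E0del/+, among them Ankrd2 (-4.11) and Capn3 (-2.63). The lone WT library was then assumed to vary as the E0del/+ libraries do, and the fast fibre markers given above were high in it.

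In SkM, 0 of 13154 genes passed the threshold in the edgeR quasi-likelihood test (0%), with 114 at an unadjusted p under 0.05, and DESeq2 also called 0. With batch as a block edgeR called 1 gene, the Y-linked Eif2s3y, with 596 at an unadjusted p under 0.05. It stood at 51.9 and 44.6 normalized CPM in WT replicate 2 and E0del/+ replicate 3, against 0.14 to 5.45 in the other SkM libraries. All 9 members passed the filter and 0 were called. Genotypes did not overlap for 11.6% of the genes tested and for 0 of the 9 members. The members with the largest log2 fold changes were Ankrd1 (1.69 ± 1.03 SE), Ankrd2 (1.09 ± 0.93), Fhl1 (0.75 ± 0.45) and Fhl2 (0.47 ± 0.54), each with adjusted p = 1.00 in edgeR. Ankrd2 rested on 1 library, since without E0del/+ SkM replicate 2 its log2 fold change was -0.39, and Fhl1 then stood at 0.29 and Ankrd1 at 0.91. Without WT replicate 2 Fhl1 stood at 0.45 and Ankrd1 at 2.55, and without WT replicate 1 Fhl1 stood at 1.12. The difference of Ankrd1 was 2.56 within batch 1 and 1.99 within batch 2, and batch 3 held no WT mouse. With batch as a block it was 2.29 ± 0.28 SE (adjusted p = 0.198 in edgeR, 0.198 to 1.00 over the alternatives), and with Xist as a block 0.94. Without E0del/+ replicate 1 the value of Fhl2 was -0.058. The MuRF genes, Ankrd23 and Capn3 lay between -0.15 and 0.05.

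**Figure D5:**
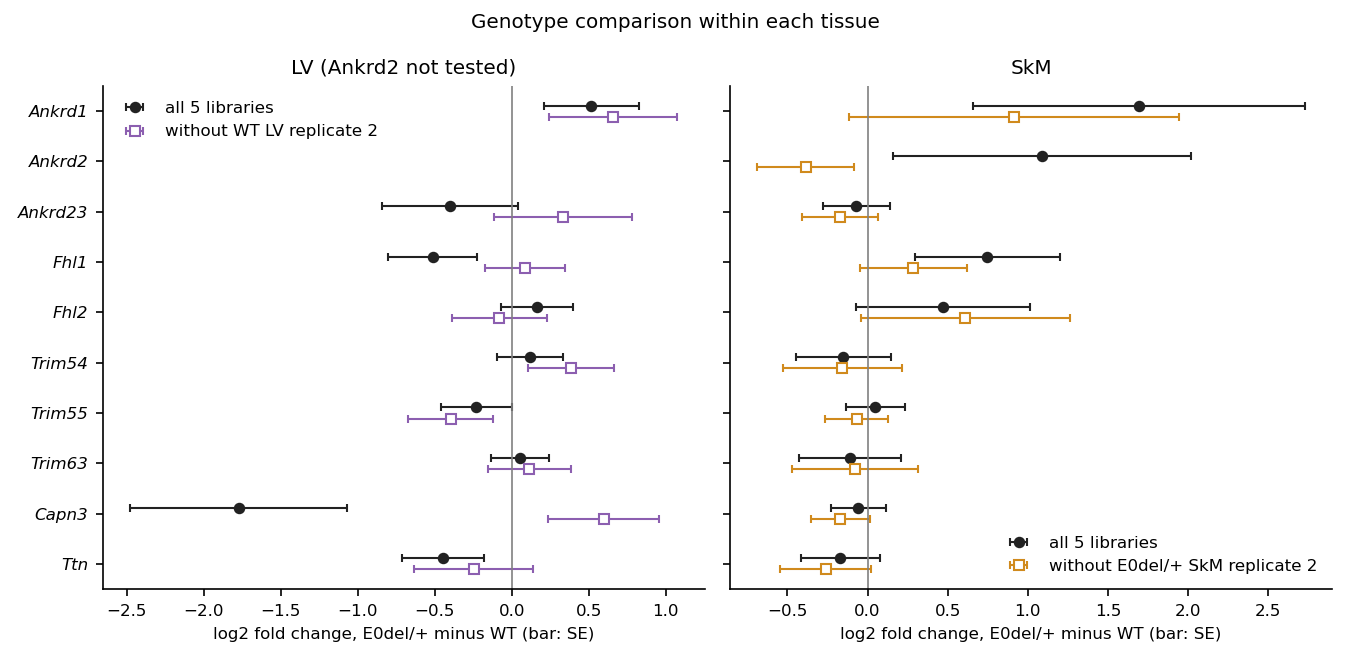
Log2 fold change E0del/+ minus WT (x axis, bars are SE) of the members and Ttn in LV with all 5 libraries (filled) and without WT LV replicate 2 (open), and in SkM with all 5 libraries (filled) and without E0del/+ SkM replicate 2 (open). In LV, Capn3 moves from -1.77 to 0.60, and in SkM, Ankrd2 moves from 1.09 to -0.39.

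A difference of the genotype effect between LV and SkM passed the threshold for 0 genes. In the interaction over all 10 libraries with the mouse as a block, that was 0 of 14327 in edgeR (0%), with 238 at an unadjusted p under 0.05, and DESeq2 also called 0. The lowest unadjusted p among the 9 members was 0.0288, for Ankrd2 (log2 difference LV minus SkM -3.73 ± 1.34 SE). With mice left out in turn, this difference ran from -1.53 without WT mouse 2 to -5.39 without WT mouse 1, and each of these 2 fits left 1 WT mouse. WT LV replicate 2 held Ankrd2 at 5.59 normalized CPM, against 0.212 to 0.605 in the other LVs.

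Relative to Ttn, 7 of the 9 members were higher in the mean of the E0del/+ LVs, as were 92.3% of 13400 genes with a count in every LV, and 2 against 3 libraries cannot give an exact permutation p under 0.1. The log2 ratio of Ankrd1 to Ttn differed by 0.93 (exact permutation p = 0.2), that of Fhl2 by 0.65 and that of Trim54 by 0.59, with the level of Ttn itself lower by a log2 difference of -0.45 in the same libraries. Without WT LV replicate 2 these differences were 0.88, 0.19 and 0.65. That of Ankrd2, the largest with all LVs and in the other direction, then moved from -2.10 to -0.68. Capn3 then turned from -0.60 to 0.83 and Trim55 from 0.21 to -0.16, and Ankrd23 moved from 0.082 to 0.51, with 7 of the 9 members and 87.6% of all these genes higher. In SkM the exact permutation p of the 9 ratios was 0.1, the smallest possible, for Fhl1 (log2 difference 0.85) and between 0.2 and 1 for the other 8. All 9 differences were above 0 there, as were those of 78.7% of 12862 genes. A ratio of counts in 1 library does not say which of its 2 genes differed.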

How the data were processed

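Bulk RNA-Seq of LV and SkM from 2 WT and 3 E0del/+ mice was analysed. RNA was extracted with TRIzol, selected on poly(A) and made into Nextera XT libraries, which do not keep the strand. Per the labels' processing notes, STAR, DESeq2 and mm10 were used, and the counting software is not given in the sources used here. The authors deposited a raw count and an RPKM value per gene. RPKM was used only to check the counts. Ratios to Ttn were computed from counts per exon length.

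Genes were tested with edgeR 4.0.16 under R 4.3.3 (filterByExpr, TMM, quasi-likelihood test, Benjamini-Hochberg adjustment over all genes tested, threshold 0.05), and the code was tested on simulated data. DESeq2 1.42.0 and limma 3.58.1 were installed, and DESeq2's Wald test was an alternative. LV was compared with SkM in 8 libraries of 4 mice with the mouse as a block, and the genotypes in the 5 libraries of a tissue without covariates. The interaction used all 10 libraries. Ratios were compared by exact permutation. Replicate numbers pair samples because the labels' batch tag equals them and because the tissues of a number share a mouse. The correlation of deviations was 0.031 and -0.12 between batch partners in LV, 0.52 and 0.31 in SkM, and -0.10 to 0.092 between tissues of a mouse. Other settings were total counts, DESeq2's size factors, no filter, at least 10 counts in every library, a block for batch or for Xist over 10 CPM, and each library or mouse left out.

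The members and the lists were chosen with earlier results of these data known. Named genes were the members, Ttn, load response genes, up to 4 genes of each other list with the largest tissue difference past the threshold and a mean of at least 10 CPM, and the most abundant marker of a list. Mybpc3 and Myh7 are in 2 lists. Fbxo32, Xist, Csrp3, Actc1, Mstn and the Y-linked genes were named after their values were seen. Markers of smooth muscle, fibroblasts, endothelium and macrophages were summed as well, and of 5 blood markers, 4 were at 0 in every library.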

Additional observations from a re-analysis of the deposited data

Results flagged for a closer look

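Among the levels of 9 members and Ttn in the 5 LV and the 5 SkM libraries, 6 of 20 sets of 5 held a library whose gap to its neighbour was a large part of the range. Chance gives such a gap in about 1 of 20 sets when the sets are independent, but these sets share libraries. The share over all genes is not given here, so the count is not a result about the members. WT LV replicate 2 was the highest LV for Ankrd2 (5.59 normalized CPM), Fhl1 (308) and Capn3 (41.4). E0del/+ LV replicate 3 was the highest for Ankrd1 (2002). In SkM, E0del/+ replicate 2 was the highest for Ankrd2 (227), and E0del/+ replicate 1 for Fhl2 (6.20), from 86 counts. No cause was tested for these values.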

How the results depend on the processing

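Over the settings tried, 416 values of single genes kept their direction and side of the threshold, 33 changed sign, 10 newly passed and 4 no longer passed, and 87 counts and main values stayed within their limits while 6 did not. With total counts in place of TMM, the log2 fold change LV minus SkM was 0.39 for Trim55 and 0.21 for Trim63, and the calls were 7683 higher and 1698 lower against 4211 and 3991. At least 10 counts in every library removed Ankrd2 from the comparison of LV with SkM, but not from that of the genotypes in SkM. With batch as a replicate block, 5 genes were called between genotypes in LV and 1 in SkM, 0 of them members, with Trim63 at -0.030 in LV and Ankrd23 at 0.021 in SkM, and this pairing changed no other call. Without the mouse as a block, the exact permutation p of the ratios to Ttn was 0.0286 for 8 members and 0.0857 for Ankrd23. With Xist as a block, the SkM values were 0.0039 for Trim54, -0.017 for Trim55 and 0.039 for Trim63. The cause was not tested in any of these cases.

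With each library left out, genotype calls in LV ran from 0 to 578 and member calls from 0 to 2. The log2 fold changes ran from -0.88 to 0.33 for Ankrd23, -0.93 to 0.087 for Fhl1, -0.081 to 0.47 for Fhl2, -0.099 to 0.38 for Trim54, -0.028 to 0.13 for Trim63 and -2.63 to 0.60 for Capn3. In SkM they ran from -0.39 to 1.54 for Ankrd2, -0.27 to 0.17 for Ankrd23, -0.058 to 0.77 for Fhl2, -0.54 to 0.39 for Trim54, -0.068 to 0.16 for Trim55, -0.47 to 0.38 for Trim63, -0.21 to 0.12 for Capn3 and -0.33 to 0.020 for Ttn. For the genotype effect in LV minus that in SkM, calls ran from 0 to 155 and member calls from 0 to 1 with each mouse left out, and the log2 differences from -2.06 to 0.088 for Ankrd1, -0.70 to 0.15 for Ankrd23, -0.85 to 0.37 for Fhl2, -0.089 to 0.50 for Trim54, -0.57 to 0.069 for Trim55, -0.33 to 0.54 for Trim63, -2.39 to 0.37 for Capn3 and -0.59 to 0.041 for Ttn. Leaving out a WT mouse leaves 1, which is assumed to vary as the others do. The highest counts of calls, both in LV and for the difference between tissues, came from the fits with WT mouse 2 as the only WT. Ankrd2 in LV rests on 4 to 10 counts a library outside WT replicate 2.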
